A study of Homo sapiens with 6 samples.

Results

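Chemokines are small secreted or membrane-bound proteins that draw leukocytes along a gradient by binding G protein-coupled receptors. The genes described here are 10 chemokines that tumour cells can make, Ccl2, Ccl5, Ccl7, Ccl20, Cxcl1, Cxcl5, Cxcl10, Cxcl12, Cxcl16 and Cx3cl1. This list and the other gene lists were chosen with earlier results of these data known, so counts over them are a description. The members were found by symbol, and all 10 were matched among the 22989 genes of the deposited count table. They were read in 6 RNA-seq libraries, 3 of LINC00115 KD and 3 of WT cells. Both groups are MDA-MB-231 PTX-resistant BCSC by their labels, that is breast cancer stem-like cells (BCSC) sorted for aldehyde dehydrogenase activity from a paclitaxel (PTX) resistant culture of this triple-negative human line. A hairpin RNA directed at LINC00115, a long noncoding RNA, was used for the KD, and the table holds 0 symbols equal to LINC00115, so the knockdown could not be checked and directions rest on the labels. The controls are called wild type in the labels, while the paper names a control hairpin. If these libraries carried none, an effect of LINC00115 loss and a response to the hairpin cannot be told apart. Nothing in the labels says that the 3 libraries of a group came from separate cultures, so p-values measure the spread between these libraries, which may be technical.

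The libraries held 36979221 to 38799331 counts. The gene symbols are written as for mouse genes, whereas the labels name a human line. Names of chemokine genes that one of these species lacks were therefore searched. Of 10 names for human ligands without a mouse gene of that name, among them Cxcl8, 0 were matched, and of 7 mouse ligands without a human gene of that name, 5 were matched, with up to 474 counts for Ccl9. Other names in the table, among them Ifit3b, Tgtp2 and 2510039O18Rik, are also those of mouse genes. The counted genes are therefore those of a mouse annotation, at odds with the human line and human genome builds of the labels and methods. How this came about was not tested, and the values cannot be read as those of human genes. Symbols are printed as the table gives them, and no genome positions are given for them. Of the markers that describe MDA-MB-231, Vim and Cd44 had 3420 ± 49.8 and 911 ± 45.8 normalized CPM in WT (SD, n = 3), and Krt8 and Krt18 were present. Epcam, also listed as a marker present in this line, had only 0 to 5 counts in any library. Of the receptors that a triple-negative line lacks, Pgr had at most 3 counts, Esr1 went from 24 to 29 counts in WT to 82 to 105 in KD and was called higher (log2 fold change 1.87), and Erbb2 had 17.0 ± 1.27 normalized CPM in WT and 27.6 ± 0.534 in KD.

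Chemokines fall into families by the spacing of their first cysteines. Ccl2 and Ccl7 attract monocytes through Ccr2, Ccl5 attracts T cells and monocytes, in part through Ccr1, and Ccl20 acts on Ccr6. Cxcl1 and Cxcl5 attract neutrophils through Cxcr2, while the interferon-inducible Cxcl10 attracts activated T cells through Cxcr3. Cxcl12 binds Cxcr4 and the scavenging receptor Ackr3. Cxcl16 and Cx3cl1 are made as transmembrane proteins that the proteases Adam10 and Adam17 can shed, and they bind Cxcr6 and Cx3cr1. Many of these genes are switched on by NF-kB, and some by interferon through factors such as Stat2 and Irf9, which bind the interferon-stimulated response element (ISRE).

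Promoters of the human genes are shown for CXCL10, CXCL1 and CXCL5 because these 3 members carried one of the motifs searched and because Cxcl10 moved most among the members while Cxcl1 and Cxcl5 moved little. They are RefSeq sequences of GRCh38.p14, from 250 bases before to 50 after the start site. The sequences belong to the human genes, whereas the names counted are those of mouse genes. CXCL10 lies at chr4:76023448-76023747 on the minus strand, CXCL1 at chr4:73869143-73869442 on the plus strand and CXCL5 at chr4:73998628-73998927 on the minus strand. Capitals mark the ISRE letters, GAAA and GAAA with 2 bases between them, and the NF-kB letters, GGGA and TTCC with 2 bases between them, both searched on either strand.
CXCL10: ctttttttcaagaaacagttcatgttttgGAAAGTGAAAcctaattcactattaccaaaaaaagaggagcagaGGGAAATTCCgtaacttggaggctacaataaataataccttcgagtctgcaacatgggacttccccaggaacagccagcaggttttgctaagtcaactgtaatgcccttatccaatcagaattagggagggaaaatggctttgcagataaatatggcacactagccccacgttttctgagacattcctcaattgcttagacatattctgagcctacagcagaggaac
CXCL1: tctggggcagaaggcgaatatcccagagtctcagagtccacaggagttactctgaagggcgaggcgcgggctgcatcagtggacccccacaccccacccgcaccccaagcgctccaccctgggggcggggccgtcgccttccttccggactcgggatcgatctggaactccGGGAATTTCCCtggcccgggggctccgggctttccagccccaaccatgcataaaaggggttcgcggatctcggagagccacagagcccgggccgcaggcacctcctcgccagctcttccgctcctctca
CXCL5: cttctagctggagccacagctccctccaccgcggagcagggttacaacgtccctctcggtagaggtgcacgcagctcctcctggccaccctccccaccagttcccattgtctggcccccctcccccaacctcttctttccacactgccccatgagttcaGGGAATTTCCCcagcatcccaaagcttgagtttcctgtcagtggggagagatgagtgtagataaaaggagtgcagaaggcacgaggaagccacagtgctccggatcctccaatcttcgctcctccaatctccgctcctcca
In CXCL10 the ISRE match GAAAGTGAAA begins at position -221 from the start site and the NF-kB match GGGAAATTCC at -177. In CXCL1 and CXCL5 the NF-kB letters matched at -79 and -91, each with an overlapping match on the other strand that begins 1 base further on, and the ISRE letters were not in the window. Of 35116 promoters of this length, 3.57% held the ISRE letters and 1.61% the NF-kB letters. Among the 6 members with a promoter in the reference table, 1 held the ISRE letters and 3 the NF-kB letters, and CCL7, CCL20 and CXCL12 held neither. CCL2, CCL5, CXCL16 and CX3CL1 were not searched. These matches describe letters in a window and not binding, and whether they bear on the changes in counts was not tested.

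Counts were scaled to library totals by the TMM method (normalized CPM) and tested over 13497 genes with edgeR's quasi-likelihood test. A gene is said to have risen or fallen at an adjusted p-value under 0.05, and it is called where its fold change is also over 2, the thresholds of the methods. Of the 10 members, 9 passed the expression filter and Cxcl12 did not. Among these 9, 4 were called higher in the KD libraries, Cxcl10, Ccl5, Ccl2 and Ccl7, against 10.2% of all genes tested, and 0 were called lower, against 9.98%. At the adjusted p alone, 6 of the 9 rose and 2 fell, against 36.7% of all genes in each direction. The unadjusted p under 0.05 gave the same numbers, 6 higher and 2 lower, and DESeq2 called 4 higher and 0 lower. No share of all genes was taken for the unadjusted p or for DESeq2, here or below. The median log2 fold change was 0.245 over the 9 members and -0.006 over all genes tested. Summed over the 10 members, the level was 1150 ± 33.0 normalized CPM in WT and 1910 ± 22.4 in KD (SD, n = 3), and Ccl2 alone made up 66.3% of that difference and Cxcl10 13.7%.

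**Figure D1:**
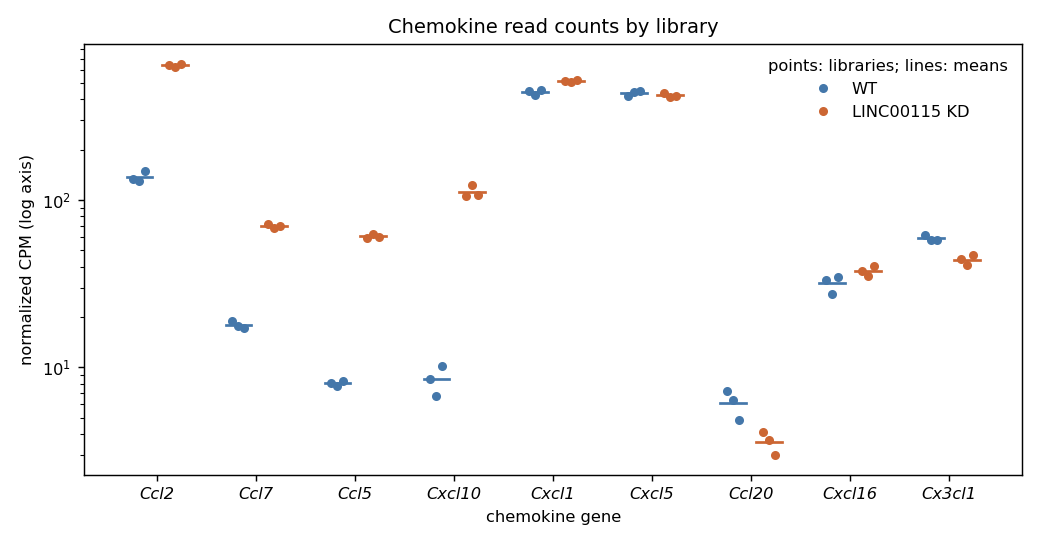
Normalized CPM on a log axis for 9 chemokine genes in the 3 WT and 3 LINC00115 KD libraries (points) with group means (lines); Cxcl12 is left out because it had 0 counts in WT. The KD points of Ccl2, Ccl7, Ccl5 and Cxcl10 lie far above the WT points, and those of Cxcl5 overlap them.

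The monocyte attractants Ccl2 and Ccl7 both rose. Ccl2 stood at 134, 130 and 149 normalized CPM in the WT libraries and at 641, 626 and 656 in the KD libraries. Every KD library lay above every WT library, and the ratio of the means was 4.66. On the log2 scale the fold change was 2.22 ± 0.04 (standard error), with an adjusted p of 7.24e-32 by edgeR's quasi-likelihood test. Ccl7 stood at 19.0, 17.7 and 17.3 normalized CPM in WT and at 72.1, 68.5 and 69.7 in KD, a ratio of 3.89 and a log2 fold change of 1.96 (edgeR, standard error 0.062, adjusted p = 1.17e-24). The groups did not overlap for either gene, a pattern that 37.8% of all genes tested showed in this direction. The reads of Ccl2 per read of Ccl7 within a library were 7.67 ± 0.841 in WT and 9.15 ± 0.262 in KD (SD, n = 3), a proportion that moved far less than either gene. Ccl2 and Ccl7 are related in sequence, and how the counting treated reads that fit more than one gene is not known here.

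Ccl5 (RANTES) and Cxcl10 (IP-10), which act on T cells, had the largest fold changes among the members, whereas Ccl2 changed most in normalized CPM. Ccl5 stood at 8.02, 7.76 and 8.28 normalized CPM in WT and at 59.5, 62.5 and 59.9 in KD, so that WT libraries were all low and KD libraries all high. The KD mean was 7.56 times the WT mean, a log2 fold change of 2.92 (edgeR, standard error 0.072, adjusted p = 7.73e-28). Cxcl10 stood at 8.52, 6.73 and 10.2 normalized CPM in WT and at 106, 123 and 108 in KD. The ratio of the means was 13.3, with a log2 fold change of 3.73 (edgeR, standard error 0.083, adjusted p = 3.16e-29), and the spread among WT libraries was small beside the gap to the lowest KD library. By the size of their fitted log2 changes the members ran Cxcl10, Ccl5, Ccl2, Ccl7, and the 95% intervals of neighbours in this order did not overlap, with 3.56 to 3.90 for Cxcl10, 2.77 to 3.07 for Ccl5, 2.14 to 2.30 for Ccl2 and 1.83 to 2.09 for Ccl7.

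The neutrophil attractants Cxcl1 and Cxcl5 had high counts in every library and moved little. Cxcl1 stood at 450, 423 and 454 normalized CPM in WT and at 515, 509 and 523 in KD. The groups did not overlap, but the mean was only 1.16 times higher, a log2 fold change of 0.22 (edgeR, standard error 0.033, adjusted p = 3.94e-07). Cxcl5 stood at 419, 442 and 447 normalized CPM in WT and at 435, 413 and 420 in KD, and these ranges overlapped. Its log2 fold change was -0.05 with a 95% interval of -0.11 to 0.02 (adjusted p = 0.224), an interval far below the change of Ccl2. The adjusted p of Cxcl5 passed 0.05 with upper quartile scaling (0.0204) and without WT replicate 1 (0.0281), at log2 fold changes of -0.09 and -0.07. Their relative Cxcl2, which uses the same receptor and is a gene outside the members, was called higher, at 4.31 ± 0.915 normalized CPM in WT and 21.0 ± 2.74 in KD. The reads of Cxcl1 per read of Cxcl2 went from 106 ± 21.4 in WT to 24.8 ± 2.75 in KD.

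Ccl20 and Cx3cl1 were the members that fell, both by less than a fold of 2. Ccl20, an attractant of Th17 cells and immature dendritic cells, stood at 7.17, 6.36 and 4.82 normalized CPM in WT and at 4.08, 3.65 and 2.98 in KD. Its log2 fold change was -0.78 (edgeR, standard error 0.183, adjusted p = 0.000318), and its WT libraries differed among themselves more than those of most members. Cx3cl1 (fractalkine), the membrane-anchored ligand of Cx3cr1, stood at 61.8, 58.0 and 57.7 normalized CPM in WT and at 44.3, 41.2 and 46.7 in KD. It fell to 0.745 of its WT mean, a log2 change of -0.42 (standard error 0.057, adjusted p = 4.70e-08). For both genes every KD library lay below every WT library, as for 37.8% of all genes tested.

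Cxcl16, the other transmembrane chemokine, stood at 33.1, 27.5 and 34.6 normalized CPM in WT and at 37.5, 35.3 and 40.1 in KD. It rose by a log2 fold change of 0.24 (edgeR, standard error 0.074, adjusted p = 0.00353), with the highest WT library just under the lowest KD library. Without WT replicate 2, the lowest library, the change was 0.15 and no longer passed (adjusted p = 0.0638). Cxcl12, a chemokine of stromal cells that guides cells carrying Cxcr4, had 0 counts in each WT library and 2, 3 and 3 counts in the KD libraries. No fold is given because no library exceeded 3 counts, the limit that a count of 0 allows for counting error, and the gene was not tested.

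**Figure D2:**
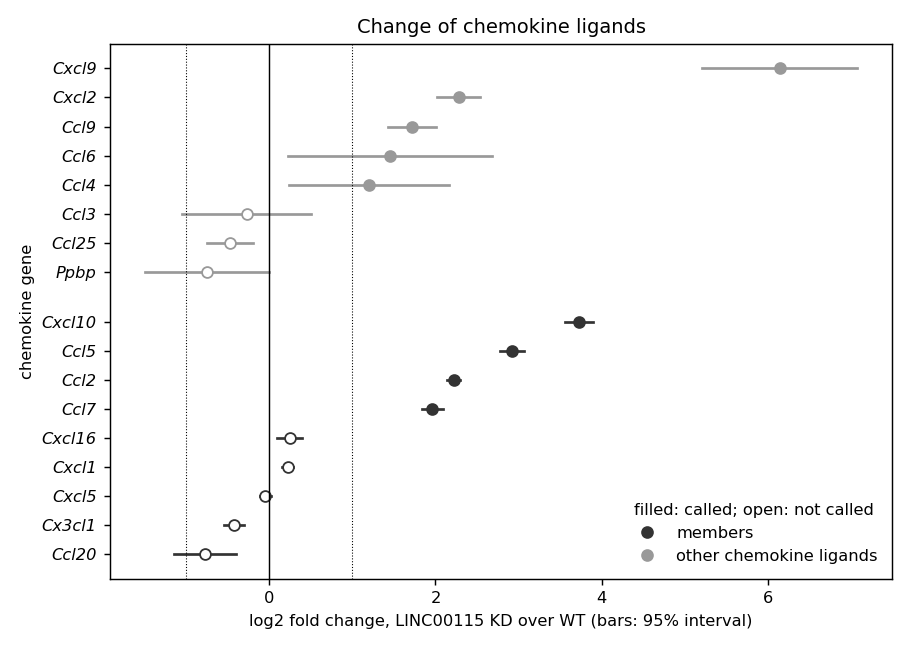
Log2 fold change (KD over WT, x axis) with its 95% interval for the 9 tested members and 8 other tested chemokine ligands; filled points were called and dotted lines mark a fold of 2. Cxcl10, Ccl5, Ccl2 and Ccl7 lie beyond the right dotted line with narrow intervals, and Ccl4 and Ccl6 reach back across it; Ccl22 and Cxcl15, at 0 counts in WT, are not drawn.

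Of 31 other chemokine ligands listed, 21 were matched and 10 were tested, of which 7 were called higher and 0 lower, against 10.2% and 9.98% of all genes. At an unadjusted p under 0.05, 7 were higher and 2 lower, and DESeq2 called 6 higher and 0 lower, with no share of all genes taken for either rule. Genes at or near 0 in WT could pass the filter only through the KD libraries, so these counts are a description. The interferon-inducible Cxcl9, which shares the receptor Cxcr3 with Cxcl10, had 0, 6 and 1 counts in WT and 171, 209 and 139 in KD, a ratio of 74.0 with an exact 95% counting interval of 35.7 to 185. Its fitted log2 fold change was 6.14, and 8.12 without WT replicate 2. Ccl9, which mice use to attract myeloid cells, went from 3.44 ± 0.150 to 11.3 ± 0.854 normalized CPM. Ccl22, a ligand of Ccr4, had 0 counts in WT and 15, 17 and 15 in KD, at least 5.22-fold higher than 3 counts per library. Ccl4 (24, 19 and 9 counts in WT, 41, 51 and 28 in KD) was not called without WT replicate 3 or without KD replicate 2 (adjusted p = 0.125 and 0.116, edgeR's quasi-likelihood test). Ccl6, with 2 to 12 counts in WT and 16 to 27 in KD, was not called without KD replicate 3, WT replicate 1 or WT replicate 3, with no low-count filter or by DESeq2. Cxcl15, known from lung epithelium, had 0 counts in WT and 49, 43 and 47 in KD, at least 15.4-fold higher than 3 counts per library.

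Of 25 chemokine receptor genes listed, 16 were matched and 6 were tested, of which 2 were called higher and 2 lower, against 10.2% and 9.98% of all genes. DESeq2 called 4 higher and 2 lower. Cx3cr1 passed the filter only through the WT libraries and Ccr1 through the KD libraries, so these counts are a description. For the ligands that rose most, receptor counts were low. Ccr2, the receptor of Ccl2 and Ccl7, had at most 2 counts in any library. Ccr1, which also binds Ccl5 and Ccl7, had 11, 7 and 5 counts in WT and 35, 30 and 43 in KD, a log2 fold change of 2.21 (edgeR, standard error 0.525, adjusted p = 0.00034). Cxcr3, the receptor of Cxcl9 and Cxcl10, rose from 1.27 ± 0.482 to 2.25 ± 0.310 normalized CPM (adjusted p = 0.0203) and was not called. Cxcr2, the receptor of Cxcl1 and Cxcl5, had 0 counts in WT and 3, 2 and 2 in KD.

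Ccrl2, an atypical receptor that holds the attractant chemerin at the cell surface, was the receptor gene with the strongest rise, from 3.03, 2.81 and 2.83 normalized CPM in WT to 29.4, 27.9 and 31.3 in KD. Its log2 fold change was 3.35 (edgeR, standard error 0.106, adjusted p = 1.18e-24), and the KD libraries were all high. Ackr3, the scavenger of Cxcl12, stood at 101, 92.9 and 98.2 normalized CPM in WT and fell to 50.9, 47.0 and 45.0 in KD. Its log2 fold change was -1.03 (standard error 0.052, adjusted p = 9.53e-19), and without KD replicate 3 it was -0.98, under a fold of 2. Cxcr4, the signalling receptor of Cxcl12, had 0 counts in WT and 14, 3 and 3 in KD and was not tested. Cx3cr1 fell with its ligand Cx3cl1, from 59, 42 and 85 counts in WT to 0, 2 and 1 in KD, a ratio of WT over KD of 62.1 with an exact 95% counting interval of 20.9 to 304. Its fitted log2 fold change was -5.79, and -6.65 without KD replicate 2. Counting intervals cover counting error only.

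**Figure D3:**
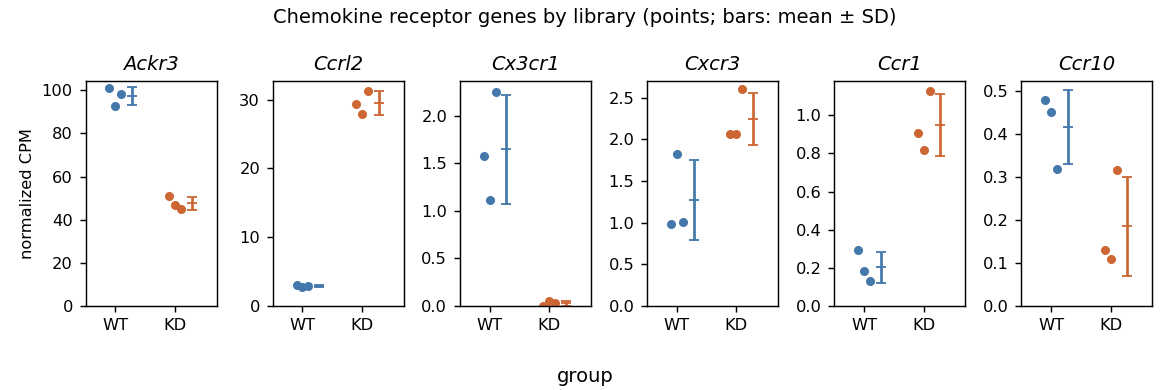
Normalized CPM of the 6 tested chemokine receptor genes in each library (points) with the mean ± SD of the 3 libraries of a group (bars), each on its own linear axis from 0. Ackr3 and Cx3cr1 are low in KD and Ccrl2 and Ccr1 high, while Cxcr3 and Ccr10 differ by less beside their spread.

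The genes around the chemokines moved unevenly. All 5 interferon signalling factors listed rose and 4 were called higher, against 36.7% and 10.2% of all genes tested, and the list's median log2 fold change was 2.11, beside -0.006 for all genes. Irf7 rose from 71.5 ± 2.09 to 454 ± 12.1 normalized CPM. Stat2 was called with a log2 fold change of 2.11, and Irf9 with 1.04, which was under a fold of 2 with upper quartile scaling and without WT replicate 1 (1.00 and 0.98). Ifnb1, the interferon beta gene, chosen after its values were seen, had 1, 5 and 1 counts in WT and 40, 66 and 87 in KD. Of 14 genes of NF-kB subunits and regulators, 5 rose and 5 fell, close to the 36.7% of all genes tested in each direction, and 0 were called, against 20.2% of all genes either way. DESeq2 called 0 of these as well, and the unadjusted p under 0.05 gave the same 5 and 5. Nfkb1 and Nfkb2 changed by 0.15 and -0.11 on the log2 scale.

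Of 14 cytokines and receptors that induce chemokines, 4 rose and 7 fell, against 36.7% of all genes in each direction, and 3 were called higher and 2 lower, against 10.2% and 9.98%. Ifnb1 is 1 of those called higher and passed the filter only through the KD libraries. The interleukin-1 receptor gene Il1r1 fell from 36.9 ± 3.12 to 13.1 ± 1.04 normalized CPM, and the tumour necrosis factor receptors Tnfrsf1a and Tnfrsf1b changed by -0.38 and -0.26 on the log2 scale. Tnf itself, chosen after its values were seen, had 24, 51 and 40 counts in WT and 18, 15 and 5 in KD. Il6 rose from 2.84 ± 0.412 to 5.81 ± 0.775 and Il17rc, a receptor subunit for interleukin-17, from 38.3 ± 1.96 to 77.4 ± 3.13 normalized CPM. Both were near a fold of 2 and lost the call in 4 of the alternatives each. Of 7 matched genes of proteins that bind AU-rich or other decay elements of mRNAs, 3 rose and 3 fell, near the share of all genes (36.7% each way), and 0 were called by either edgeR or DESeq2, with Zfp36l2 at 0.69 and Hnrnpd at 0.01 on the log2 scale and with 3 and 3 at an unadjusted p under 0.05.

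Among the 5 tested proteases that shed or trim chemokines, 2 rose and 3 fell, against 36.7% of all genes in each direction. The genes called were 1 higher and 1 lower, against 10.2% and 9.98%. The 1 called higher, Mmp2, named after its values were seen, had 0, 1 and 23 counts in WT and 22, 29 and 20 in KD. These ranges overlapped, and DESeq2 called 0 of the proteases higher. Adam10 stood at 196 ± 3.80 normalized CPM in WT and 145 ± 3.79 in KD, and its relative Adam17 at 180 ± 3.09 and 132 ± 1.94, so the sheddases of Cx3cl1 and Cxcl16 fell alike, by 0.44 and 0.45 on the log2 scale. Mmp9, a gelatinase that can truncate CXC chemokines, fell most, from 149 ± 1.39 to 25.3 ± 1.25 normalized CPM, a log2 fold change of -2.55. Mmp14, the other gene that rose, was at 174 ± 12.7 and 186 ± 5.21, and its ranges overlapped. Its adjusted p was 0.0402, and it no longer passed without WT replicate 1 (0.364, edgeR's quasi-likelihood test). Of 20 tested genes of signal transduction below chemokine receptors, 11 rose and 7 fell, against 36.7% of all genes in each direction. The genes called were 2 each way, about the share of all genes called (10.2% higher and 9.98% lower). Called lower were the G protein subunit Gng2 (log2 fold change -3.07) and the arrestin Arrb1 (-1.72), which takes receptors off the surface, and called higher were the Rac regulators Prex1 (1.30) and Elmo1 (1.09, and 0.95 without WT replicate 3). Gnai2, the main inhibitory G protein of leukocyte chemotaxis, stood at 898 ± 17.7 and 708 ± 10.7 normalized CPM, and Gnb1 at 539 ± 6.48 and 543 ± 4.36.

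**Figure D4:**
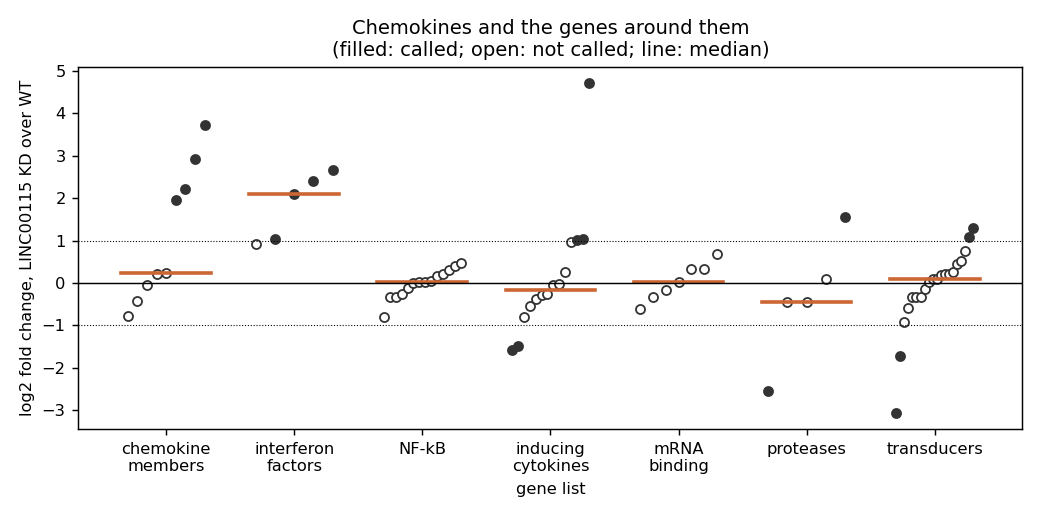
Log2 fold change (KD over WT, y axis) of each tested gene in 7 gene lists (x axis), with the list median as a line, called genes filled and dotted lines at a fold of 2. The interferon factors lie between 0.91 and 2.67, the NF-kB genes all lie within the dotted lines, and the chemokines spread from -0.78 to 3.73.

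By the root mean square difference of centred log2 normalized CPM over the 6 libraries, the genes most like Cxcl10 among 10747 genes with a mean of at least 100 counts were Ifit3b (0.0614), Tgtp2 (0.0946) and Sp110 (0.133). Ifit3b went from 7.53 ± 1.60 to 101 ± 2.36 normalized CPM and Tgtp2 from 2.76 ± 0.559 to 36.6 ± 0.572. Those most like Cxcl1, the member with the highest mean count, were Wdr11 (0.0168), Katnbl1 (0.0205) and 2510039O18Rik (0.0208). With both groups of libraries this likeness rests mainly on the size of the group difference.

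Chemokines are also made by leukocytes, endothelium and stroma, and markers of such cells were summed in each library. In bulk samples, more cells of a type and more RNA per cell cannot be told apart. The 15 leukocyte markers summed to 88.6 to 100 normalized CPM in WT and 196 to 211 in KD. Of the 8 that were tested, 5 were higher in every KD library, against 37.8% of all genes tested. These 5 were called higher and 0 were called lower, against 10.2% and 9.98%. S100a9 passed the filter only through the KD libraries, so these counts are a description. The 1 marker that was lower in every KD library, Csf1r, was not tested. Of that sum S100a8, Cd14 and Cd68 gave most. Lyz2 went from 0.795 ± 0.626 to 6.58 ± 0.199 normalized CPM, Cd74 from 0.928 ± 0.254 to 3.27 ± 0.708 and S100a9 from 0.0176 ± 0.0306 to 1.47 ± 0.332, and these 3 were called higher, as were S100a8 and Cd14. Ptprc (at most 13 counts), Cd3e (0) and Csf1r (at most 3) were at or near 0 in all libraries. The part of such cells in the chemokine differences was not tested. The 5 endothelial markers went from 0.715 to 1.19 in WT to 57.3 to 59.7 in KD, of which Cdh5 was 57.8 ± 1.45 CPM, while Pecam1 had at most 19 counts, Tek at most 2 and Kdr at most 10. Fibroblast markers summed to 175 to 193 in WT and 76.4 to 78.4 in KD, and nearly all of this was Pdgfra. Of the 4 that were tested, 0 were higher and 3 lower in every KD library, against 37.8% of all genes tested in each direction. Called lower were 2, against 9.98% of all genes. Col1a1 had at most 20 counts and Lum at most 2. Platelet markers summed to 3.21 to 3.97 and 2.45 to 3.54, with Gp9 at 0 throughout.

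All 8 lung epithelial markers were higher in every KD library, against 37.8% of all genes tested. Except for Napsa, they had 0 to 6 counts in WT and passed the filter only through the KD libraries, so this count is a description. The 8 markers summed to 0.956 to 1.19 normalized CPM in WT and 71.4 to 83.3 in KD. Of these, Scgb1a1 reached 43.6 ± 4.68 and Sftpc 14.7 ± 1.13 normalized CPM in KD, with 0 counts in each WT library. Cxcl15 moved with them, and the part of such RNA in this or in any other chemokine difference was not tested.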

How the data were processed

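RNA-seq was carried out on 3 libraries labelled LINC00115 KD and 3 labelled WT. The authors trimmed adapters and mapped reads with HISAT2 to hg19 according to the methods, and the submitters' processing notes name hg38, featureCounts and DESeq2. They deposited 1 table of whole-number read counts per gene symbol without normalization. The names in the table are those of mouse genes, but which annotation was counted, and whether by strand, is not given in the sources used here. Columns were matched to samples by the description in the labels, and columns of values not used number 0.

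In R 4.3.3, the filter filterByExpr was applied (minimum count 10, minimum total 15), and counts were scaled by TMM and tested with the quasi-likelihood test of edgeR 4.0.16 in a model with the group only, with Benjamini-Hochberg adjustment over 13497 genes. Calls needed an adjusted p under 0.05 and a fold change over 2. Each standard error was derived from the fold change and its F statistic, and intervals are 95%. Libraries held 36979221 to 38799331 counts, and a count of 0 allows up to 3 counts, for counting error only. A chi-square of counts per degree of freedom was 3.88 to 7.60 for pairs within a group, so none was a copy.

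The 10 members and the gene lists were chosen with earlier results of these data known. Named are all members, called ligands and receptors, and from other lists called genes whose higher group has 100 or more counts in each library, and the 2 of highest mean count. Genes outside this rule are markers, Adam17 and uncalled receptors of the members, or are said to be chosen after their values were seen, and a few genes counted in the lists are not reported here by name. Promoters came from RefSeq (GRCh38.p14). The steps were tested on simulated data. Alternatives were other scalings, other filters, each replicate left out, a block for the replicate number, no fold threshold and DESeq2 1.42.0.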

Additional observations from a re-analysis of the deposited data

How the results depend on the processing

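Over 14 alternatives the members called higher stayed 4 and those called lower 0, apart from the count without the fold-change threshold, which gave 6 higher and 2 lower. The other 13 alternatives were 3 scalings, 2 filters, 6 fits that each left out a replicate, the replicate block and DESeq2. Across them the log2 change lay within 3.59 to 3.88 for Cxcl10, 2.88 to 2.94 for Ccl5, 2.18 to 2.28 for Ccl2 and 1.92 to 2.00 for Ccl7. With at least 10 counts in every sample, which drops genes low in WT or in KD, the other ligands called went from 7 to 2 and the receptors from 4 to 2. Without a replicate these counts ranged from 5 to 7 and from 4 to 5, with no low-count filter they were 9 and 6, and with DESeq2 6 and 6. Changes near 0 reversed for Gnb1, from 0.012 to -0.029 with upper quartile scaling and -0.007 with library size alone, and for Hnrnpd, from 0.012 to -0.029 and -0.007, with values from -0.036 to 0.055 without a replicate. The cause was not tested. The median log2 fold change of all genes moved by less than 0.05 between scalings. Deviations of libraries with the same replicate number correlated at 0.044, -0.004 and -0.016, so the numbers do not pair the libraries, and not every library correlated best with its own number. With the replicate block the members called stayed 4 and 0, the other ligands 7 and the receptors 4. Depth limits Cxcl12, Ccr2, Cxcr2 and Cxcr4, which had 0 to 14 counts.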
